A study of Homo sapiens with 24 samples.

Results

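The 74 genes described here encode mitochondrial ribosomal proteins. They were chosen by symbol: every gene whose symbol starts with MRPL or MRPS followed by a digit, leaving out 2 antisense RNA and 2 pseudogene symbols (MRPL20-AS1, MRPL23-AS1, MRPL42P5 and MRPS31P5). The array named 18811 genes in all, and 100 of its 27003 probes with 1 gene symbol belonged to the 74. The rule uses symbols alone and no measured value. All 74 genes passed the detection filter in both cell lines, as did 94 of the 100 probes in each line. MRPL10 was the exception to steady detection, above background on 3 of 12 arrays in WM35 and 5 of 12 in Mel-624, and MRPS14 was detected on 11 and 6. The 72 other genes were detected on every array of both lines.

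Mitochondria keep a small genome of their own, and its messages, which encode core subunits of the respiratory chain and ATP synthase, are read by a ribosome that exists only inside the organelle. Its RNA comes from the mitochondrial genome, but every one of its proteins is encoded in the nucleus, made in the cytosol and imported. The large subunit (MRPL proteins, with MRPS30 and MRPS18A, which carry small-subunit names) joins amino acids, and the small subunit (the other MRPS proteins) holds and decodes the messenger. Some of the proteins descend from the bacterial ancestor and others were added in the mitochondrion. By these textbook classes 49 of the 74 were large and 25 small subunit genes, and 46 were of bacterial type and 28 specific to mitochondria.

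Transcripts were measured on Illumina expression BeadChips in 2 human melanoma lines, on 24 arrays, 3 for each of 8 groups, which the labels letter A, B and C. For 24 h, WM35 cells were held at an oxygen level of 21% (normoxia) or 1% (hypoxia). Recombinant human insulin-like growth factor 1 (IGF1) was given to some of them, at 100 ng/mL, for the 6 h before harvest. In Mel-624 the perturbation was transfection of an siRNA pool, either non-targeting (siControl) or aimed at IGF1R, the receptor of IGF1 (siIGF1R), followed by 3 days at either oxygen level. The series set out to derive IGF1 expression signatures, and both lines were maintained in medium with serum. Each perturbation was made in 1 line only, and hypoxia lasted 24 h in one line and 3 days in the other.

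Levels are given as log2 signal, background-corrected and quantile-normalized within each line. An effect is a difference of such levels between group means (n = 3), printed with ± its SE. "Called" means an adjusted p (Benjamini-Hochberg, limma) under 0.05 among the 9569 genes tested in WM35 or the 9292 in Mel-624. Levels of different genes come from different probes and are not compared. Nothing in the labels says that replicates came from separate cultures, so the p-values reflect only how these arrays spread, which may be technical, and the small number of arrays limits the precision. All 12 arrays of a line were on the same chip, and the other line's were on another, so differences of line and of chip cannot be told apart. The samples are whole cultures, in which a change in RNA per cell and a change in the mix of cells cannot be told apart. Comparisons within a line share arrays with each other. Between 13948 and 15987 probes were detected per array. The mean signal before normalization was 330.8 ± 12.4 (SD, n = 3) in the WM35 normoxia controls, 255.7 to 259.7 in the 3 other WM35 groups and 309.3 to 342.0 in the Mel-624 groups. On the first principal component of the WM35 arrays' deviations from their group means, the highest scores were 14.73 (hypoxia control A), 11.25 (normoxia control C) and 10.97 (hypoxia IGF1 C). Counts without hypoxia control A and normoxia control C are given beside the WM35 results in which genes were called with or without them. Among the Mel-624 arrays, the highest scores on their own first component, signed likewise, were 11.04 (normoxia siIGF1R A) and 10.001 (hypoxia siIGF1R A). The lowest was -9.765 (normoxia siControl B). Of 9 melanocyte markers with a named probe, 7 were detected on all 12 Mel-624 arrays, against 3 (SOX10, MIA and CDH19) on all 12 WM35 arrays, where MLANA, PMEL, TYR, TYRP1 and S100B were detected on 0. Among the 9 markers of melanocytes and other cell types tested in WM35, 3 were called in hypoxia without IGF1, CD68 (0.69), KDR (-0.90) and SOX10 (-0.42), and the same 3 were called with IGF1. Among the 11 tested in Mel-624, 5 were called in hypoxia with siControl, MIA (0.55), CDH19 (0.52), LUM (0.31), MITF (-0.52) and DCN (-0.41). Of the markers of other cell types, PTPRC, CD3E, PECAM1, CDH5, VWF, COL1A1, COL3A1, KRT5 and KRT14 were detected on 0 arrays of either line. Others were detected on all 12 arrays of a line, CD68 and KRT8 in WM35 and CD68, DCN and LUM in Mel-624. The part of the markers that moved in the hypoxia results was not tested. The hypoxia marker NDRG1, a stress-induced gene, rose in hypoxia by 1.89 ± 0.11 (adjusted p = 9.95e-08) in WM35 without IGF1 and by 1.58 ± 0.10 (adjusted p = 1.11e-07) in Mel-624 with siControl.

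The targeted receptor fell in Mel-624. IGF1R read 6.98, 7.06 and 7.07 with siControl and 6.03, 6.28 and 6.39 with siIGF1R in normoxia, and 8.46, 8.65 and 8.23 against 6.19, 7.02 and 6.59 in hypoxia. The groups did not overlap at either oxygen level, and the effects were -0.81 ± 0.18 (adjusted p = 0.00992) and -1.84 ± 0.18 (adjusted p = 2.47e-05). The titles of the hypoxic knockdown arrays spell the target siIGFR1, and they were taken to have received the pool that the treatment protocol describes. Because that protocol names a single targeting pool, loss of the receptor and other targets of that pool cannot be told apart.

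The promoter letters of a few genes are shown before the values, since the genes named here moved in ways the values below turn on. A RefSeq table (build GRCh38.p14) gave at least 1 window, from 250 bases before to 50 after an annotated start, for 66 of the 74 genes, 82 windows in all. MRPL10, MRPL13, MRPL15, MRPL2, MRPL21, MRPL23, MRPL35 and MRPS28 had none in the table. The 250 bases before the start are printed 5′ to 3′ on the gene's own strand, and capitals mark any of 4 motifs searched on both strands: GCGC, any 2 bases and GCGC (the core bound by NRF1, a regulator of nuclear genes for mitochondrial proteins), CCGGAAG (a core of ETS family factors, GABP among them), CACGTG (the E-box that MYC binds) and ACGTG (the core of hypoxia response elements, of which every CACGTG holds 1 on each strand). MRPL46 and MRPS11 lie head to head on chromosome 15. Their annotated starts are separated by 319 bases, so their windows share 181 bases, and the 2 genes, a large-subunit protein specific to mitochondria and a small-subunit protein of bacterial type, both fell in hypoxia in Mel-624.
MRPL46 (chr15:88467389-88467638, strand -): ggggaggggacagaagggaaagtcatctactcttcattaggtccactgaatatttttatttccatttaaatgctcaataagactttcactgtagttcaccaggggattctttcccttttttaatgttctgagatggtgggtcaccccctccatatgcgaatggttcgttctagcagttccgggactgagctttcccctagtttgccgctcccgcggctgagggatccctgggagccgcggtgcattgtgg
MRPS11 (chr15:88467458-88467707, strand +): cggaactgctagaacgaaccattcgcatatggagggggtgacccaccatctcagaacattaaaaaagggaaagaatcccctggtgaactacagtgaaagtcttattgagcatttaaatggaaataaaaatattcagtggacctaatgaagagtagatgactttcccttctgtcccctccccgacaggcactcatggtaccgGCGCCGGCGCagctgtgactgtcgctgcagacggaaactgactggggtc
MRPS26, a small-subunit protein specific to mitochondria, and MRPL36, a small bacterial-type protein of the large subunit, were called lower in hypoxia in both lines. MRPS26 holds CCGGAAG on the reverse strand, and MRPL36 holds the other 3 motifs.
MRPS26 (chr20:3045802-3046051, strand +): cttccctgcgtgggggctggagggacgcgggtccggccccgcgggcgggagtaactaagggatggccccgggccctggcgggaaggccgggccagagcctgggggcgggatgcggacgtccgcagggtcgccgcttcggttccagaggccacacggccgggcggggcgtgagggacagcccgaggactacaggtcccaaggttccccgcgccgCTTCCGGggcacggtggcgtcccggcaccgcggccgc
MRPL36 (chr5:1799838-1800087, strand -): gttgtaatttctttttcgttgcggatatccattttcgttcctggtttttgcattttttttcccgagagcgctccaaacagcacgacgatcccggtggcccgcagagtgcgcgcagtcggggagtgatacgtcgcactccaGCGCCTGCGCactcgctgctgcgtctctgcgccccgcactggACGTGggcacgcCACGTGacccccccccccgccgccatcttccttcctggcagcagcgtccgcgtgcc
MRPL44, a large-subunit protein that resembles the double-strand RNA nuclease family, and MRPS30 rose in hypoxia in Mel-624. Neither printed stretch holds any of the 4 motifs, and neither does that of MRPL46, which fell. A link between motif and direction was not tested.
MRPL44 (chr2:223957213-223957462, strand +): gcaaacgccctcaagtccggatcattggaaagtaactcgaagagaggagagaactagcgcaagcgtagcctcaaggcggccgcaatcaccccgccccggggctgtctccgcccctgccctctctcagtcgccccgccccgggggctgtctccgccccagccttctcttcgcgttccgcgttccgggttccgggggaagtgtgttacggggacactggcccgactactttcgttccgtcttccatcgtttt
MRPS30 (chr5:44808697-44808946, strand +): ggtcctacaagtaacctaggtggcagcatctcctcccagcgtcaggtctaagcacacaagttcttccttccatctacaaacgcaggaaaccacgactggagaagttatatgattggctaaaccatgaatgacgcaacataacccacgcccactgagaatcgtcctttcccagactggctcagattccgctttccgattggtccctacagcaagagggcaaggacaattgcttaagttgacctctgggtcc

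CCGGAAG was present in 31 of the 82 windows (37.8%), against 10.3% of all 35116 promoter windows in the table and 18.2% of the 10074 windows of genes tested in both lines. The other 3 motifs were nearer to the tested genes: the NRF1 core in 12.2% of the 82 windows against 15.1%, CACGTG in 11% against 9.98% and ACGTG in 30.5% against 26.6%. Over all promoter windows these 3 shares were 8.32%, 7.26% and 21.4%. Among windows of genes called lower in hypoxia in Mel-624 with siControl, 12 of 31 held CCGGAAG (38.7%), and among windows of genes not called there 19 of 44 (43.2%). The 7 windows of genes called higher there held it 0 times. ACGTG was in 9 of those 31 windows (29.0%), in 14 of the 44 (31.8%) and in 2 of the 7. These are descriptions of letters in a window and not of binding.

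The mean level of the 74 genes on each array was lower in hypoxia than in normoxia in both lines. In WM35 it was 9.56, 9.56 and 9.64 in normoxia without IGF1 and 9.50, 9.34 and 9.32 in hypoxia without IGF1. With IGF1 it was 9.65, 9.62 and 9.66 in normoxia and 9.48, 9.45 and 9.49 in hypoxia. The normoxia and hypoxia arrays did not overlap within either treatment. Hypoxia control A, the array with the highest component score, was the highest of its group. In both lines the sign of the component was set to follow the 74 genes, so score and mean level are not independent. In Mel-624 the means were 10.06, 10.01 and 10.08 with siControl and 9.96, 9.88 and 9.91 with siIGF1R in normoxia. In hypoxia they were 9.86, 9.87 and 9.86 with siControl and 9.92, 9.79 and 9.78 with siIGF1R. Here siControl arrays did not overlap between oxygen levels, and siIGF1R arrays did, because hypoxia siIGF1R A (9.92), one of the arrays with a high component score, lay above 2 of the 3 normoxia arrays. The mean over all genes tested went from 7.99 to 7.98 between the WM35 control groups and from 8.21 to 8.16 between the siControl groups. Quantile normalization within a line holds that mean nearly constant, so it is no independent background. It also constrains the median effects over all genes given below.

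**Figure D1:**
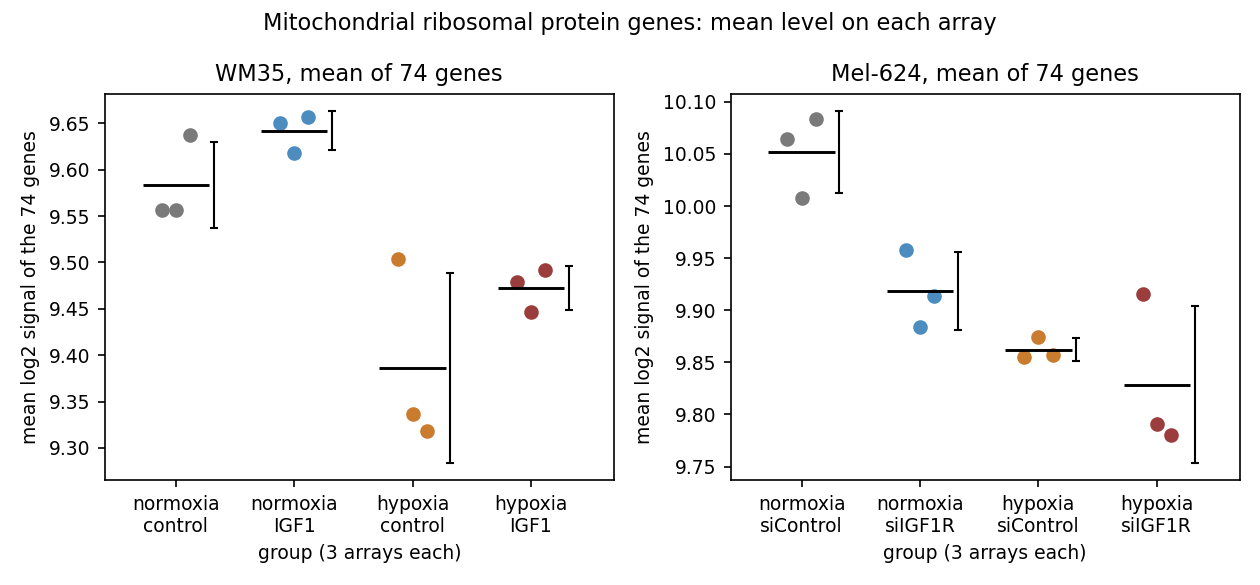
Mean log2 signal of the 74 mitochondrial ribosomal protein genes on each array (points) by group, with the group mean (line) and SD (bar, n = 3) for WM35 on the left and Mel-624 on the right. Hypoxia control A of WM35 (9.50) sits above its 2 companions (9.34 and 9.32), and the Mel-624 siControl groups are separated by oxygen level.

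Hypoxia in unstimulated WM35 lowered mitochondrial ribosomal protein genes and raised none that passed the test. Of the 74 genes, 17 were called lower (23.0%) and 0 higher, by limma, with 31 (41.9%) at an unadjusted p below 0.05, against 34.7% of all genes. Over all 9569 genes tested 20.7% were called, 10.7% lower and 9.98% higher. The median effect was -0.20, against -0.03 over all genes tested. In 30 of the 74 genes all 3 hypoxia arrays lay below all 3 normoxia arrays, against 20.8% of all genes. Of the large-subunit genes 12 of 49 fell, with a median of -0.19, and of the small-subunit genes 5 of 25, with a median of -0.21.

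The largest fall was that of MRPL1, which forms the L1 stalk that guides spent tRNA out of the ribosome. It read 7.35, 7.35 and 7.66 in normoxia and 6.81, 6.83 and 6.6 in hypoxia, a change of -0.71 ± 0.15 (adjusted p = 0.00501). The 3 hypoxia arrays lay well below the normoxia arrays. MRPL36 read 12.08, 12.10 and 12.19 in normoxia and 11.65, 11.43 and 11.64 in hypoxia (-0.55 ± 0.10, adjusted p = 0.00225), also without overlap. MRPL19, a bacterial-type protein of the large subunit, read 6.17, 6.19 and 6.39 against 6.00, 5.51 and 5.56 (-0.56 ± 0.15, adjusted p = 0.0197). MRPL15, another such protein, read 7.37, 7.48 and 7.19 against 7.12, 6.84 and 6.2 (-0.63 ± 0.19, adjusted p = 0.0373). In these last 2 genes hypoxia control A was the highest of the hypoxia arrays and lay close to the normoxia range. MRPL12, the flexible stalk protein that recruits translation factors and also binds the mitochondrial RNA polymerase, read 10.53, 10.38 and 10.28 against 9.92, 9.92 and 9.99 (-0.45, called lower). MRPS6, a bacterial-type protein of the small subunit, MRPL58, a peptidyl-tRNA hydrolase that frees stalled chains, MRPS15 and MRPS23 were also called lower, at -0.46, -0.34, -0.30 and -0.43. MRPL41 (-0.34) and MRPL11 (-0.05) were not called.

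The count of 17 moved with single arrays. Leaving out normoxia control A or C gave 10 (13.5%, against 15.1% and 15.5% of all genes), normoxia control B or hypoxia control B 9 (12.2%, against 14.3% and 14.4%) and hypoxia control C 8 (10.8%, against 16.3%). In these 5 fits the share of the 74 genes was below that of all genes called in either direction. The share of all genes called lower was not counted in these fits. In the main fit it was 10.7%, against 20.7% in either direction. Leaving out hypoxia control A gave 25 (33.8%, against 19.2%). Without normoxia control C and hypoxia control A together it was 13 (17.6%), against 14% of all genes. Leaving out 1 array ended the call of MRPL15 for 5 of 12 arrays, all of them in the 2 groups compared (normoxia controls A, B and C and hypoxia controls B and C, adjusted p up to 0.12, effect down to -0.37), and that of MRPL19 for normoxia control C and hypoxia controls B and C (adjusted p up to 0.0811).

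With IGF1 present, hypoxia in WM35 lowered 9 of the 74 genes (12.2%) and raised 0, against 15.6% of all genes called, 7.36% lower and 8.19% higher. The median was -0.16, against -0.02 over all genes, and 27 of the 74 had every hypoxia array below every normoxia array, against 17.9% of all genes. The groups compared here had like mean signals before normalization, 259.7 and 255.7. MRPS6 read 12.26, 12.09 and 12.19 in normoxia and 11.67, 11.49 and 11.68 in hypoxia (-0.56 ± 0.09, adjusted p = 0.00129). MRPS12, a protein at the decoding centre whose bacterial relative is a site of streptomycin resistance mutations, read 7.14, 7.0 and 6.87 against 6.58, 6.24 and 6.34 (-0.62 ± 0.16, adjusted p = 0.0220). In both, every hypoxia array was below every normoxia array. MRPL58 read 9.37, 9.66 and 9.62 against 9.04, 9.09 and 9.14 (-0.47 ± 0.11, adjusted p = 0.0116). MRPL46 read 10.23, 10.35 and 10.32 against 9.99, 9.80 and 9.90 (-0.40 ± 0.09, adjusted p = 0.0117). In each of the 4 genes the 2 groups were separate. MRPL44 was also called lower here (-0.40), from 7.56, 7.49 and 7.51 to 7.05, 7.06 and 7.24. The count was 4 without normoxia IGF1 A, 5 without normoxia IGF1 B and 2 without hypoxia IGF1 B, against 11%, 13.7% and 9.45% of all genes. Without normoxia control C and hypoxia control A together it was 11 (14.9%), against 18% of all genes. MRPS12 lost its call without normoxia IGF1 A, hypoxia IGF1 B or hypoxia IGF1 C (adjusted p up to 0.0905), and MRPL46 without hypoxia IGF1 B (adjusted p = 0.0602).

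Hypoxia in Mel-624 with siControl moved genes of this family in both directions, with falls in the majority. Of the 74 genes 31 were called lower (41.9%) and 6 higher (8.11%), against 28.4% and 23.2% of all 9292 genes tested and 51.6% called in either direction. The median was -0.21, against -0.03 over all genes. All 3 hypoxia arrays lay below all 3 normoxia arrays in 36 of the 74, against 32.7% of all genes. Large-subunit genes had 21 lower and 3 higher of 49, and small-subunit genes 10 lower and 3 higher of 25. Bacterial-type genes had 23 lower and 2 higher of 46, with a median of -0.28, and genes specific to mitochondria 8 lower and 4 higher of 28, with a median of -0.13.

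Among the falls, MRPS28, a relative of the bacterial S1 protein in the small subunit, read 9.34, 9.20 and 9.48 in normoxia and 8.16, 8.23 and 8.54 in hypoxia (-1.03 ± 0.17, adjusted p = 0.000207). MRPL50, a large-subunit protein specific to mitochondria, read 9.82, 9.35 and 9.87 against 8.79, 8.97 and 8.83 (-0.82 ± 0.18, adjusted p = 0.00229). MRPS31, specific to mitochondria and in the small subunit, read 10.54, 10.60 and 10.76 against 9.83, 9.81 and 9.99 (-0.76 ± 0.10, adjusted p = 3.56e-05). Every hypoxia array of these 3 genes lay below every normoxia array. MRPS6 read 10.88, 10.74 and 10.88 against 10.06, 10.02 and 10.17 (-0.75 ± 0.09, adjusted p = 1.22e-05). The head-to-head pair fell together but unequally, MRPL46 by 0.72 on the log2 scale, from 10.86, 10.93 and 10.82 to 10.08, 10.15 and 10.21, and MRPS11 by 0.27, from 11.59, 11.81 and 11.80 to 11.48, 11.46 and 11.44. The second kept probe of MRPS11 read -0.35. MRPL41, a large-subunit protein specific to mitochondria, and MRPS23 were called lower at -0.52 and -0.39.

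The 6 rises were MRPL44, MRPS30, MRPS2, MRPS25, MRPS35 and MRPL9. MRPL44 read 8.49, 8.23 and 8.29 in normoxia and 9.04, 9.08 and 9.15 in hypoxia (0.75 ± 0.11, adjusted p = 8.19e-05). MRPS30, a large-subunit protein despite its name, read 11.06, 10.85 and 10.79 against 11.57, 11.53 and 11.65 (0.68 ± 0.09, adjusted p = 4.9e-05). In both genes the hypoxia arrays lay clear above the normoxia arrays. MRPS2, a bacterial-type protein of the small subunit, read 9.46, 9.38 and 9.77 against 9.81, 10.04 and 10.07 (0.43 ± 0.13, adjusted p = 0.0133), and its lowest hypoxia array was just above its highest normoxia array. MRPS25, a small-subunit protein specific to mitochondria, read 7.98, 7.87 and 8.18 against 8.47, 8.37 and 8.41 (0.41 ± 0.11, adjusted p = 0.00595). MRPS35 and MRPL9 rose by 0.40 and 0.27. The stalk genes MRPL12 and MRPL11 (-0.06 and -0.04) and MRPS12, MRPS15 and MRPL58 (-0.14, 0.05 and -0.26) were not called. The call of MRPS2 was lost without normoxia siControl B or hypoxia siControl C (adjusted p up to 0.0577).

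With siIGF1R, hypoxia in Mel-624 lowered 19 of the 74 genes (25.7%) and raised 8 (10.8%), against 27.3% and 22.7% of all genes and 50% called in all. The median was -0.13, against -0.01 over all genes, and in 27 of the 74 every hypoxia array was the lower, against 30.6% of all genes. MRPL44 read 8.65, 8.37 and 8.35 in normoxia and 9.54, 9.62 and 9.40 in hypoxia (1.06 ± 0.11, adjusted p = 5.07e-06), the largest rise of any of the 74 genes in the comparisons made. MRPS30 read 11.13, 11.03 and 11.11 against 11.72, 11.67 and 11.80 (0.64 ± 0.09, adjusted p = 8.63e-05). MRPS2 read 9.28, 9.62 and 9.49 against 10.16, 10.12 and 9.92 (0.60 ± 0.13, adjusted p = 0.00178). All 3 genes had separate groups. MRPL10, a stalk-base protein of the large subunit, was above background on 2 of 3 hypoxia arrays and on 0 of 3 in normoxia, and rose at least 1.27-fold (adjusted p = 0.0313), a call that was lost without normoxia siIGF1R B or C or hypoxia siIGF1R A or B (adjusted p up to 0.112). The bound sets the bright group's mean against the dim group's, with each dim array raised to its lowest detected signal.

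Among the falls with siIGF1R, MRPL1 read 7.01, 6.78 and 7.01 in normoxia and 6.2, 5.96 and 6.03 in hypoxia (-0.87 ± 0.13, adjusted p = 0.000108). MRPS28 read 9.40, 8.62 and 8.98 against 8.35, 8.43 and 8.28 (-0.64 ± 0.17, adjusted p = 0.00593). In neither gene did a hypoxia array reach the normoxia range. MRPL16, a bacterial-type protein of the large subunit, read 10.52, 10.37 and 10.71 against 10.01, 9.72 and 9.96 (-0.63 ± 0.12, adjusted p = 0.000628). MRPS12 read 6.24, 6.79 and 6.67 against 5.97, 5.85 and 5.97 (-0.64 ± 0.18, adjusted p = 0.00923). The groups were separate in all 4 genes, narrowly so for MRPS28, whose normoxia arrays were widely spread.

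**Figure D2:**
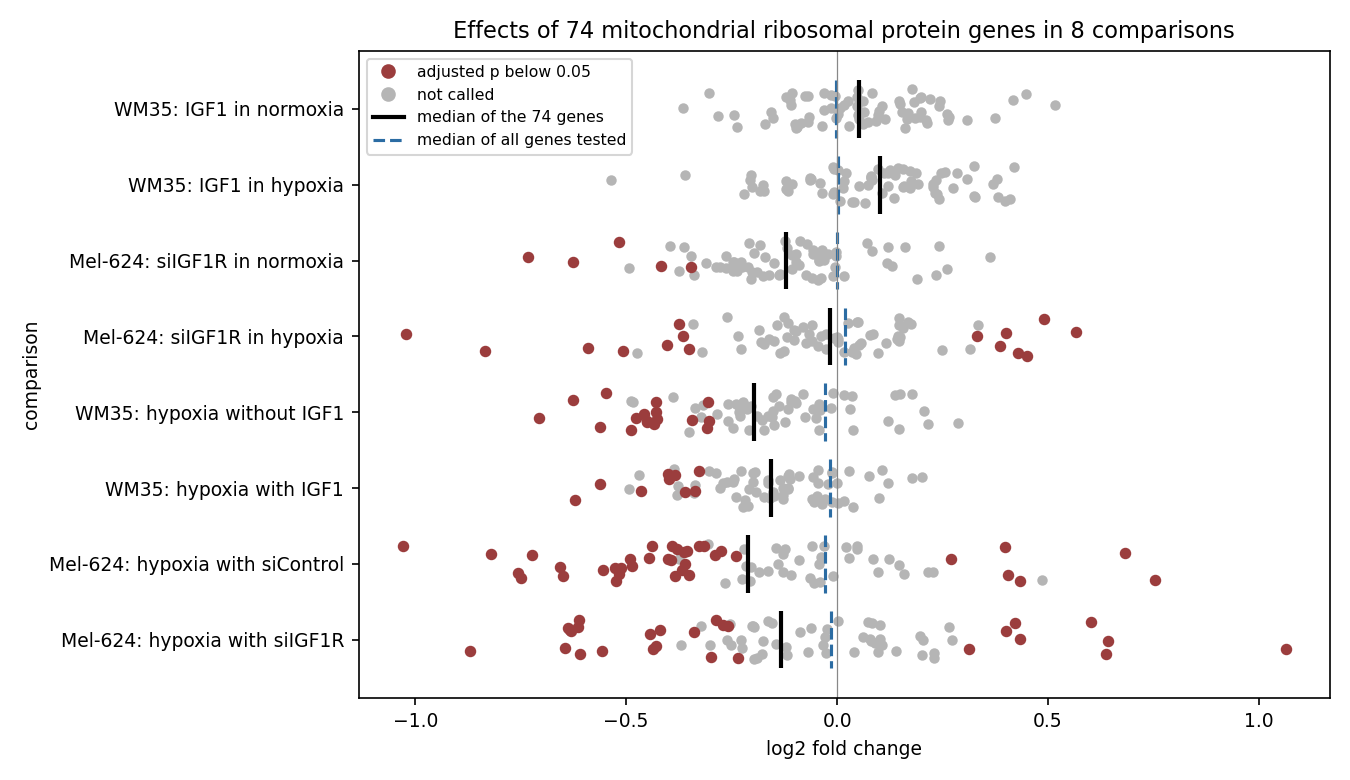
Log2 fold change of each of the 74 genes (points, dark red where called at an adjusted p below 0.05) in 8 comparisons, with the median of the 74 (black) and of all genes tested (blue, dashed). The medians of the 4 hypoxia comparisons lie at -0.20, -0.16, -0.21 and -0.13, and those of all genes between -0.03 and -0.01.

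Of the 17 genes called lower in hypoxia in unstimulated WM35 and the 31 in Mel-624 with siControl, 10 were called lower in both, 58.8% of the first list and 32.3% of the second. They were MRPL1, MRPL14, MRPL36, MRPL38, MRPL50, MRPL55, MRPS6, MRPS23, MRPS26 and MRPS28, and 0 genes were called in opposite directions. Of all genes tested, 10.7% and 28.4% were called lower in the 2 lines. How many of those were shared was not counted, so the overlap has no background to be read against. MRPS26 read 10.47, 10.63 and 10.73 against 10.24, 10.17 and 10.07 in WM35 and 10.73, 10.67 and 10.65 against 10.30, 10.17 and 10.45 in Mel-624. It was also called lower in hypoxia with IGF1 (-0.38) and with siIGF1R (-0.26), as were MRPS6, MRPL46 and MRPS12. Across the 74 genes the hypoxia effects of the 2 lines correlated at r = 0.39, against r = 0.31 over 8391 genes, and genes are not independent replicates. For hypoxia under treatment the correlation over the 74 genes was r = 0.04, against r = 0.205 over 8391 genes. MRPL44 was called lower in WM35 with IGF1 and higher in Mel-624 with siIGF1R.

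**Figure D3:**
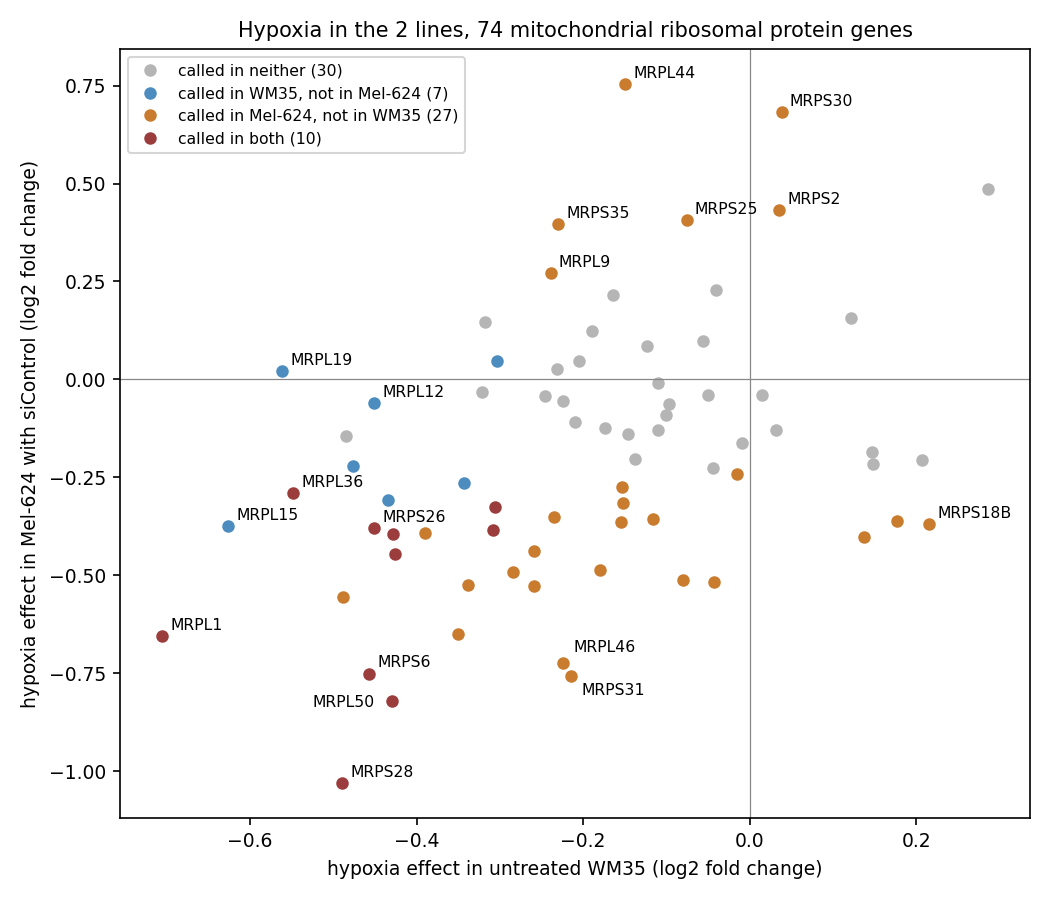
Hypoxia effect (log2 fold change) of each of the 74 genes in unstimulated WM35 (x axis) and in Mel-624 with siControl (y axis), coloured by the line in which the gene was called. The 10 genes called in both lie in the lower left, and MRPL44 and MRPS30 lie high on the y axis with WM35 effects near 0 (-0.15 and 0.04).

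The difference between the lines was tested on the 8371 genes with the same probe kept in both lines, fewer than the 8391 genes tested in each line through its own brightest probe. Of the 74 genes 14 were called (18.9%), 8 with the higher effect in Mel-624 and 6 with the lower, against 35.1% of all genes, 14.8% and 20.3%. Without WM35 normoxia control C and hypoxia control A, 12 were called, against 30.9% of all genes. The median difference was 0.01. The largest was that of MRPL44, 0.90 ± 0.14 (adjusted p = 4.42e-05), which read 7.33, 7.60 and 7.54 against 7.42, 7.25 and 7.35 in WM35 with no separation of the groups. MRPS35, in the small subunit, differed by 0.63 ± 0.20 (adjusted p = 0.0159) and MRPS30 by 0.61 ± 0.16 (adjusted p = 0.00547). MRPS18B, of a family with 3 human members, differed by -0.57 ± 0.16 (adjusted p = 0.00903), rising by 0.22 in WM35 without a call and falling by 0.37 in Mel-624 with one, but its second probe gave 0.19 in WM35 and 0.18 in Mel-624. MRPL12 differed by 0.40, lower in hypoxia in WM35 and without a call in Mel-624. The call of MRPS35 was lost without Mel-624 normoxia siControl C or WM35 normoxia control C (adjusted p up to 0.0554). Line, chip and length of hypoxia cannot be told apart in this difference.

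**Figure D4:**
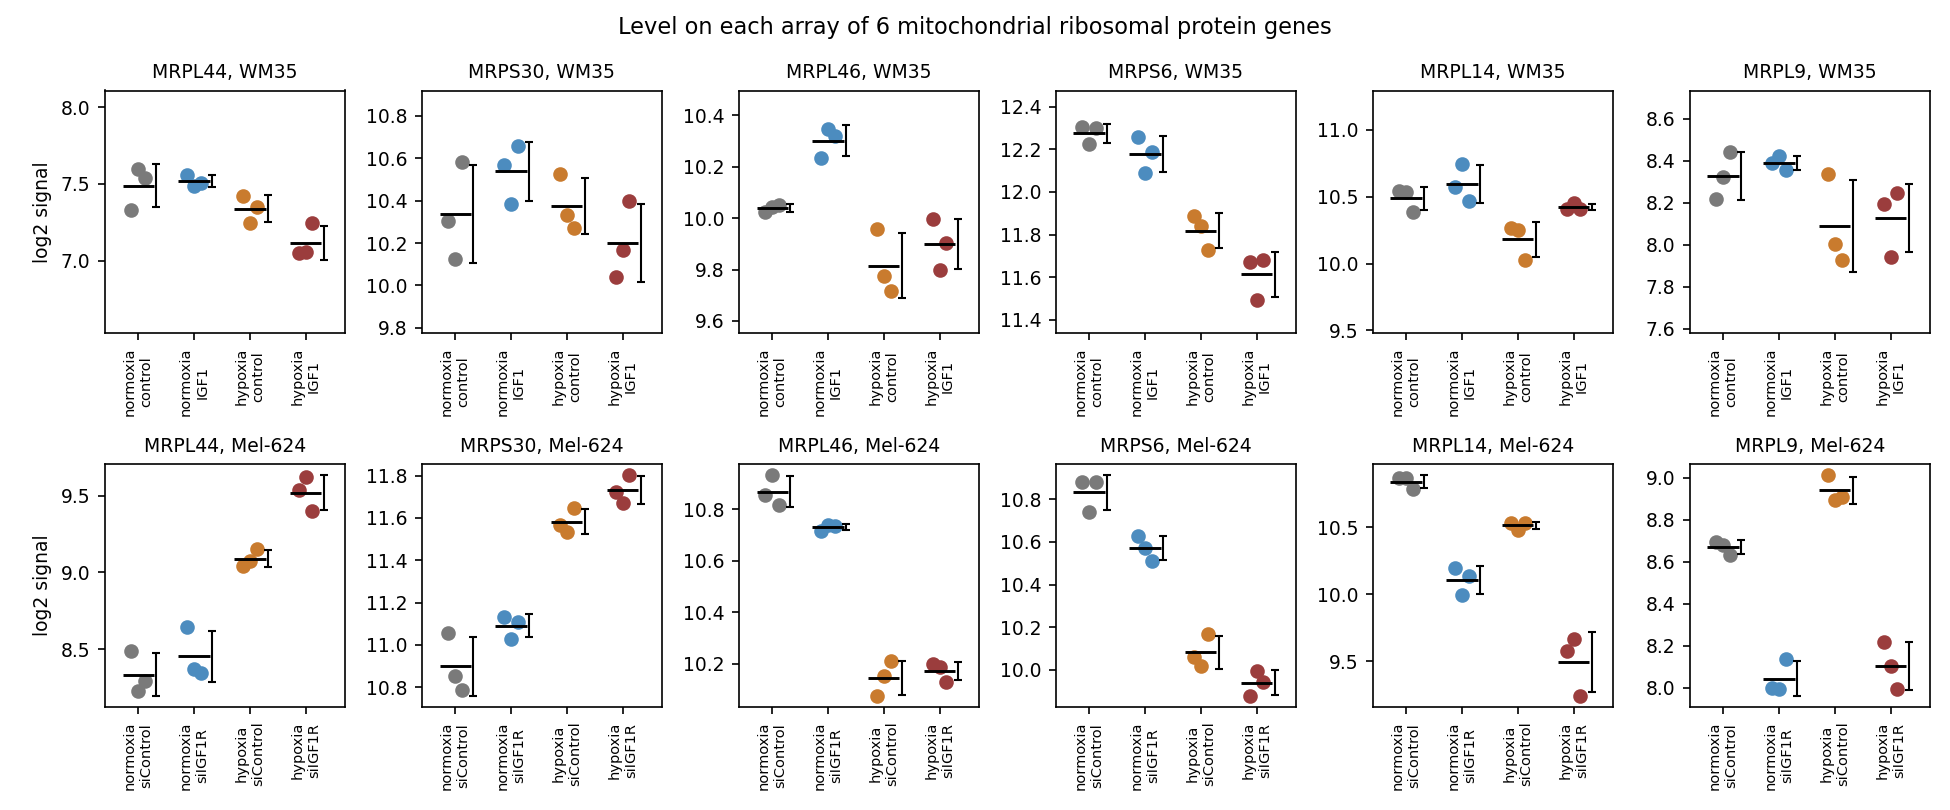
Log2 signal on each array (points), group mean (line) and SD (bar, n = 3) of 6 genes in WM35 (top) and Mel-624 (bottom), with the same span on the y axis for both lines of a gene. MRPL44 and MRPS30 are higher in hypoxia in Mel-624, MRPL46 and MRPS6 lower, and MRPL14 and MRPL9 are lower with siIGF1R at both oxygen levels.

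IGF1 receptor knockdown in normoxic Mel-624 lowered 5 of the 74 genes (6.76%) and raised 0, by limma, against 16% of all genes called, 7.47% lower and 8.49% higher. The 5 were MRPL14, MRPL9, MRPS18B, MRPS21 and MRPS7, all of bacterial type, as were 46 of the 74. The median over the 74 was -0.12, against 0.00 over all genes. MRPL14, a large-subunit protein at the face that meets the small subunit, read 10.87, 10.87 and 10.79 with siControl and 10.20, 9.99 and 10.13 with siIGF1R (-0.73 ± 0.11, adjusted p = 0.00109). MRPL9, whose bacterial relative lies near the L1 stalk of the large subunit, read 8.70, 8.68 and 8.63 against 8.0, 7.99 and 8.14 (-0.63 ± 0.09, adjusted p = 0.000848). For both genes the 2 groups were far apart. MRPS18B read 11.14, 11.23 and 11.21 against 10.83, 10.64 and 10.55 (-0.52 ± 0.11, adjusted p = 0.00740), with -0.37 on its second probe. MRPS21 read 12.31, 12.03 and 12.36 against 11.96, 11.72 and 11.77 (-0.42 ± 0.11, adjusted p = 0.0186). The groups lay close together for MRPS21, whose call was lost without normoxia siControl A or C or siIGF1R B or C (adjusted p up to 0.0725). The count of 5 became 3 without normoxia siIGF1R C, a fit whose share of all genes called is not given here.

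In hypoxia the knockdown lowered 8 of the 74 genes (10.8%) and raised 7 (9.46%), against 12.7% and 13.1% of all genes and 25.8% called in all. The median was -0.02, against 0.02 over all genes. MRPL14 read 10.53, 10.48 and 10.53 with siControl and 9.58, 9.67 and 9.24 with siIGF1R (-1.02 ± 0.11, adjusted p = 5.12e-05). MRPL9 read 9.01, 8.90 and 8.91 against 8.22, 8.10 and 7.99 (-0.84 ± 0.09, adjusted p = 5.12e-05). These were the lowest effects of any of the 74 genes for the knockdown, and the groups were wide apart. MRPS7, whose bacterial relative starts the assembly of the small-subunit head, read 10.46, 10.41 and 10.56 against 10.08, 9.97 and 9.85 (-0.51 ± 0.11, adjusted p = 0.00430). MRPS12 read 6.09, 6.80 and 6.67 against 5.97, 5.85 and 5.97 (-0.59 ± 0.18, adjusted p = 0.0279), with 1 siControl array near the siIGF1R arrays. Its call was lost without hypoxia siControl B or C or any 1 of the 3 siIGF1R arrays (adjusted p up to 0.113).

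Among the 7 rises, MRPS31 read 9.83, 9.81 and 9.99 with siControl and 10.54, 10.37 and 10.43 with siIGF1R (0.57 ± 0.10, adjusted p = 0.00131). MRPS5, whose bacterial relative lines the channel where the messenger enters, read 10.45, 10.56 and 10.60 against 11.18, 10.87 and 11.04 (0.49 ± 0.10, adjusted p = 0.00422). In both the siIGF1R arrays were the higher without exception. MRPL49, specific to mitochondria and in the large subunit, read 8.87, 8.69 and 8.81 against 9.25, 9.16 and 9.31 (0.45 ± 0.12, adjusted p = 0.0137). MRPL44 read 9.04, 9.08 and 9.15 against 9.54, 9.62 and 9.40 (0.43 ± 0.11, adjusted p = 0.0123). These 2 genes also had separate groups. The others were MRPL32, MRPS35 and MRPS9. The count of 15 became 8 without hypoxia siControl B, and the call of MRPL49 was then lost (adjusted p = 0.0548). The share of all genes called in that fit is not given here, so the drop cannot be ascribed to these genes alone.

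Averaged over both oxygen levels, the knockdown lowered 14 of the 74 genes (18.9%) and raised 6 (8.11%), against 16.6% and 18.1% of all genes and 34.6% called in all. MRPL14 (-0.88 ± 0.08, adjusted p = 7.03e-06), MRPL9 (-0.73 ± 0.06, adjusted p = 6.42e-06), MRPS18B (-0.45 ± 0.08, adjusted p = 0.000755) and MRPS7 (-0.43 ± 0.08, adjusted p = 0.000900) were called lower at each level and in the average. MRPS35 was the largest rise with separate groups at both levels (0.37 ± 0.08, adjusted p = 0.00448), from 8.35, 8.20 and 7.86 to 8.59, 8.43 and 8.48 in normoxia and from 8.47, 8.61 and 8.52 to 9.06, 8.84 and 8.86 in hypoxia. MRPL11, at the base of the stalk, was called lower in the average (-0.32), and so, at the edge of the threshold and with overlapping groups in normoxia, was MRPS12 (-0.34). A difference in the knockdown's effect between oxygen levels was called by limma for 0 of the 74 genes (5 at an unadjusted p below 0.05, or 6.76%, against 15.2% of all genes, and against 0.818% of all genes called, 0.592% lower and 0.226% higher). The smallest p belonged to MRPL49 (0.57 ± 0.16, adjusted p = 0.126) and MRPS5 (0.49 ± 0.14, adjusted p = 0.131), neither called.

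**Figure D5:**
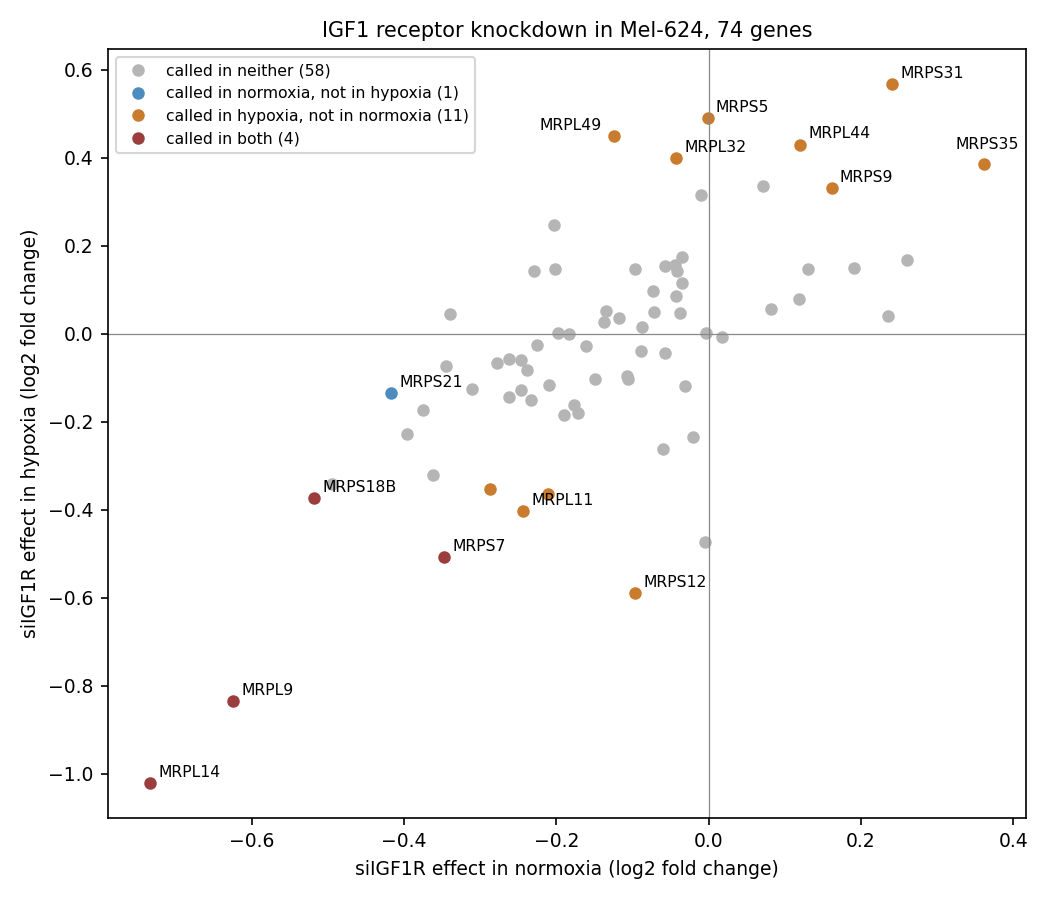
Effect of siIGF1R (log2 fold change) on each of the 74 genes in normoxia (x axis) and hypoxia (y axis) in Mel-624, coloured by where the gene was called. MRPL14 and MRPL9 lie alone at the lower left, and the 7 genes called higher in hypoxia lie between 0.33 and 0.57 on the y axis.

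IGF1 for 6 h moved few of these genes in WM35. In normoxia 0 of the 74 were called by limma, with 9 (12.2%) at an unadjusted p below 0.05, against 18.6% of all genes at that p and 1.58% of all genes called, 0.888% lower and 0.69% higher. In hypoxia 0 were called, with 19 (25.7%) at an unadjusted p below 0.05, against 24.6% of all genes at that p and 9.06% called, 4.56% lower and 4.5% higher. Both unadjusted shares were near or below those of all genes. The medians were 0.05 and 0.10, against 0.00 over all genes in both. MRPL17, a bacterial-type protein of the large subunit, had the smallest p at both levels: 11.04, 11.24 and 11.08 without and 11.60, 11.50 and 11.38 with IGF1 in normoxia (0.37 ± 0.11, adjusted p = 0.102), and 11.21, 11.23 and 10.90 against 11.52, 11.42 and 11.51 in hypoxia (0.37 ± 0.11, adjusted p = 0.0521). Its groups were separate at both levels. MRPL53 in normoxia (-0.28 ± 0.09, adjusted p = 0.128) and MRPL10 in hypoxia (at least 1.05-fold lower, adjusted p = 0.0756, above background on 1 of 3 arrays without IGF1 and 0 of 3 with it) came next and were not called. Without hypoxia control A the count in hypoxia was 2 (2.7%, against 7.98% of all genes), and without hypoxia IGF1 C it was 1 (1.35%, against 4.27%). Without normoxia control C and hypoxia control A together it was 4 (5.41%, against 8.25%).

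Averaged over both oxygen levels, IGF1 raised 5 of the 74 genes (6.76%) and lowered 1 (1.35%), against 7.57% and 7.93% of all genes and 15.5% called in all. MRPS12 read 6.39, 6.30 and 6.77 without and 7.14, 7.0 and 6.87 with IGF1 in normoxia, and 6.19, 5.65 and 6.16 against 6.58, 6.24 and 6.34 in hypoxia (averaged effect 0.45 ± 0.12, adjusted p = 0.0206). MRPL17 (0.37 ± 0.08, adjusted p = 0.00751), MRPL49 (0.25 ± 0.07, adjusted p = 0.0407), MRPS11 (0.22 ± 0.07, adjusted p = 0.0441) and MRPL34 (0.21) were the other rises. MRPL53, specific to mitochondria, fell from 10.53, 10.51 and 10.68 to 10.37, 10.26 and 10.24 in normoxia and from 10.71, 10.69 and 10.68 to 10.59, 10.43 and 10.45 in hypoxia (-0.24 ± 0.06, adjusted p = 0.0214). Except for MRPL34, these genes had separate groups at both levels. MRPS12 and MRPS11 were among both the 5 genes raised by IGF1 in WM35 and the 14 lowered by siIGF1R in Mel-624, in the averages. Across the 74 genes these 2 averaged effects correlated at r = -0.098, against r = -0.146 over 8391 genes. The like overlap over all genes was not counted. Leaving out 1 array moved the count of 6 to between 2 and 10. It was 2 without normoxia control A or B (2.7%, against 11.1% and 10.7% of all genes) and 3 without hypoxia control B or hypoxia IGF1 B (4.05%, against 11.3% and 11%). Without hypoxia control A it was 10 (13.5%, against 15.9%), and without normoxia control C and hypoxia control A together 12 (16.2%, against 17.8%). The call of MRPS12 was lost without normoxia control A or B (adjusted p up to 0.0552), that of MRPL53 without normoxia IGF1 C or hypoxia IGF1 B or C, and those of MRPL49 and MRPS11 in 9 and 10 of the 12 fits that left out 1 array (adjusted p up to 0.0995 and 0.0936).

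A difference in the IGF1 effect between oxygen levels was called by limma for 0 of the 74 genes (3 at an unadjusted p below 0.05, or 4.05%, against 8.6% of all genes, and against 0.0523% of all genes called, 0.0418% lower and 0.0105% higher). MRPL1 had the smallest p (0.72 ± 0.21, adjusted p = 0.300), reading 7.35, 7.35 and 7.66 without and 7.30, 6.86 and 7.29 with IGF1 in normoxia and 6.81, 6.83 and 6.6 against 6.94, 7.20 and 7.37 in hypoxia. MRPL10 came next (adjusted p = 0.368), and no size is given because it was above background on 0 of 3 arrays with IGF1 in hypoxia.

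Genes that work with the mitochondrial ribosome are given by lists written from textbook knowledge, to be read against the 10.7% of all genes called lower and 9.98% higher in hypoxia in unstimulated WM35, and 28.4% and 23.2% in Mel-624 with siControl. Of 36 tested genes for mitochondrial translation and assembly factors, 11 were called lower (30.6%) and 1 higher in hypoxia in unstimulated WM35, with a median of -0.20. In Mel-624 with siControl 12 of 35 were lower (34.3%) and 2 higher, with a median of -0.14. MPV17L2, an assembly factor of the mitochondrial ribosome, fell by 0.81 in WM35 and by 0.90 in Mel-624 on the log2 scale. GFM1, the elongation factor that moves the ribosome along, and TSFM, which reloads the elongation factor that carries tRNA, fell in WM35 (-0.61 and -0.56), and MTG1, a GTPase of ribosome assembly, and MTERF3, a regulator of mitochondrial transcription, fell in Mel-624 (-1.03 and -0.96). TUFM, the tRNA-carrying factor itself, was not called in either line (-0.18 and 0.12). Of mitochondrial ribosomal proteins outside the MRPL and MRPS names, DAP3 and CHCHD1 were tested in both lines and PTCD3 and GADD45GIP1 in Mel-624. None was called in hypoxia without treatment in limma (0 of 2 in WM35 and 0 of 4 in Mel-624, with 0 at an unadjusted p below 0.05), and DAP3 read -0.03 and 0.02. PTCD3 and GADD45GIP1 were dim in Mel-624 (levels of 4.97 to 5.91 and 4.89 to 5.92). Their SEs were 0.21 and 0.28, so only a large change could have been called. CHCHD1, a small-subunit protein, fell with siIGF1R in normoxia (-0.39, adjusted p = 0.0380) and in the average (-0.29, adjusted p = 0.0159).

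Regulators of mitochondrial gene expression had 4 of 14 lower (28.6%) and 0 higher in WM35, and 8 of 15 lower (53.3%) and 2 higher in Mel-624 with siControl. PPRC1, a coactivator of the PGC-1 family, fell in both (-0.41 and -1.0), as did TWNK, the helicase that unwinds the mitochondrial genome (-0.33 and -1.19). MYC (0.90) and PPARGC1A (0.44), the PGC-1 alpha coactivator, were the 2 rises in Mel-624. POLRMT, the mitochondrial RNA polymerase, fell in Mel-624 (-0.38) and was not called in WM35 (-0.11). Nuclear genes of the respiratory chain had 4 of 67 lower (5.97%) and 1 higher in WM35 (median -0.00) and 11 lower (16.4%) and 5 higher of 67 in Mel-624 (median -0.09), below the shares of all genes in both directions. Mitochondrial aminoacyl-tRNA synthetase genes had 0 of 17 called in WM35 by limma (4 at an unadjusted p below 0.05) and 3 lower and 2 higher of 17 in Mel-624.

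The cytosolic ribosome gave different values. Of 66 tested cytosolic ribosomal protein genes, 0 were called lower and 4 higher in hypoxia in unstimulated WM35 (median 0.04), and 3 lower (4.55%) and 2 higher in Mel-624 with siControl (median 0.02). With siIGF1R 9 were lower (13.6%) and 1 higher in normoxia and 10 lower (15.2%) and 1 higher in hypoxia, against 7.47% and 12.7% of all genes called lower. No test was made between these lists and the 74 genes.

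Genes with more than 1 kept probe numbered 18 of the 74 in WM35 and 17 in Mel-624. All kept probes of a gene gave the hypoxia effect without treatment the same sign in 16 and 12 of them. In Mel-624 MRPS33 gave -0.21 on its brightest probe and 0.41 on the other, MRPS18B -0.37 and 0.18, and MRPL55 -0.39, -0.54 and, on a dim probe detected on 6 of 12 arrays, 0.72. The probes of MRPL11 read -0.04, 0.10 and -0.11, and those of MRPL35 -0.44, 0.02 and -0.23.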

How the data were processed

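The authors deposited 1 table of probe intensity values that were not normalized, with a detection p-value for each probe and array, per the file headers. GenomeStudio is named in the submitters' processing notes, and the sources used here do not give a version for it. Intensities below 0 show that background had been subtracted. A second deposited table of normalized intensity, whose method is not given, held 38221 of the 47231 probes and served only as an alternative.

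Each line was processed apart with neqc in limma 3.58.1 (R 4.3.3): normexp background correction guided by the detection p-values, an offset of 16, quantile normalization and log2. Probes detected (p below 0.01) on at least 3 of a line's 12 arrays were kept, and the brightest kept probe stood for a gene. The probe annotation gave 27003 probes 1 gene symbol. Group means were fitted with lmFit and eBayes, and p-values were adjusted by Benjamini-Hochberg over all genes tested. The difference between lines was fitted after neqc over all 24 arrays. The script was tested on simulated data. No 2 arrays held identical values (highest correlation 0.995).

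Genes named were, per comparison, the up to 4 largest called rises and falls with groups that did not overlap, or the 2 smallest p-values where none was called, plus a short list of genes of known role. The symbol rule, although it uses no value, and the lists were chosen with earlier results of these data known. Alternatives covered the detection filter, probe averaging, normalization, the samples fitted, replicate letters as a block and single arrays left out.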

Additional observations from a re-analysis of the deposited data

Results flagged for a closer look

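The hypoxia effect without treatment was compared between the lines by the difference of the effects in 1 model, Mel-624 minus WM35. It differed for 14 of the 74 genes at an adjusted p below 0.05 in limma. Over all 8371 genes tested the share that differed was larger, 35.1%. Among the 14, the effect was higher in Mel-624 for MRPL44 (0.90), MRPS35 (0.63), MRPS30 (0.61), MRPL9 (0.51), MRPS25 (0.48), MRPS10 (0.46), MRPL12 (0.40) and MRPS15 (0.36). It was lower in Mel-624 for MRPS18B (-0.57), MRPL32 (-0.54), MRPS21 (-0.53), MRPS31 (-0.53), MRPL46 (-0.49) and MRPL43 (-0.37). A second kept probe gave hypoxia effects of 0.18 in Mel-624 and 0.19 in WM35 for MRPS18B, of -0.09 and -0.05 for MRPS21, and of -0.52 and 0.01 for MRPL43.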

How the results depend on the processing

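With detection required on all 12 arrays, the number called became 1 for IGF1 in hypoxia (1.39%, against 12% of all genes). For siIGF1R in normoxia it became 9 (12.5%, against 21%). With no detection filter it was 3 (4.05%) for the averaged IGF1 effect, against 6.44% of all genes, and 11 (14.9%) for hypoxia without IGF1, against 9.14%. With the mean of a gene's probes it was 2 for IGF1 in hypoxia (2.7%, against 9.27%) and 8 for siIGF1R in normoxia (10.8%, against 16.5%). The median for hypoxia with siIGF1R was then -0.0801. Fitting only the arrays of the groups compared gave 10 for hypoxia without IGF1 (13.5%, against 17.5%). Without WM35 normoxia control C and hypoxia control A together, IGF1 in hypoxia gave 4 (5.41%, against 8.25%) with a median of 0.163. The averaged IGF1 effect then gave 12 (16.2%, against 17.8%). From the deposited normalized intensities the median difference between the lines was -0.0485. The cause of these changes was not tested.

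With each array left out in turn, the count called ranged from 0 to 2 for IGF1 in hypoxia (median 0.0719 to 0.163), from 2 to 10 for the averaged IGF1 effect, from 8 to 25 for hypoxia without IGF1 and from 2 to 11 for hypoxia with IGF1. These highest counts came without hypoxia control A, where 7.98%, 15.9%, 19.2% and 17.3% of all genes were called. The lowest counts for hypoxia without and with IGF1 came with 16.3% and 9.45% of all genes called. The count ranged from 3 to 6 for siIGF1R in normoxia, from 8 to 17 for siIGF1R in hypoxia, from 28 to 37 for hypoxia with siControl and from 20 to 30 for hypoxia with siIGF1R (median -0.173 to -0.069). Without normoxia siControl C the last 3 of these were 17, 28 and 30, against 25.5%, 46.9% and 50.2% of all genes. For the lowest counts of both siIGF1R effects and of hypoxia with siIGF1R, the share of all genes called is not given here. The median difference between oxygen levels ranged from -0.00165 to 0.0923 for IGF1 and from 0.0636 to 0.133 for siIGF1R.

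Deviations of same-letter arrays from their group means correlated at -0.28 to 0.405 in WM35 and at -0.038 to 0.183 (median 0.047, against -0.021 between letters) in Mel-624. In Mel-624, letter A lay above 0 and letter B below 0 on the first component in all 4 groups, and 8 of 12 arrays correlated best with their own letter (5 in WM35), a hint of a shared letter effect. Since not every correlation was above 0.1 and no label ties the letters, they were not treated as pairs. With the letter as a replicate block the count was 4 for the averaged IGF1 effect (5.41%, against 14.1% of all genes). For hypoxia without and with IGF1 it was 18 and 8 (24.3% and 10.8%, against 19.9% and 14.4%). For siIGF1R in normoxia, in hypoxia and averaged it was 6, 15 and 22 (8.11%, 20.3% and 29.7%, against 17%, 26.7% and 35.7%). For hypoxia with siControl and siIGF1R it was 38 and 28 (51.4% and 37.8%, against 52.3% and 51%). For the difference between lines it was 15, with the share of all genes not given here. Over 58 results for named genes and 1088 values under an alternative, 0 changed sign where called, 69 lost a call (54 of them with 1 array left out) and 2 gained one, both MRPL17 for IGF1 in hypoxia. MRPL10 and MRPS14 were near background, which limits their values.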
